A study of Homo sapiens with 2 samples.

Results

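The HOX genes encode transcription factors that bind DNA through a homeodomain and give cells their place along the axes of the body. In mammals they lie in 4 clusters on different chromosomes, HOXA, HOXB, HOXC and HOXD, in which the order of the genes follows the order of the regions they pattern. In cells that use a cluster its chromatin carries acetylated histones, and the genes contact enhancers both inside the cluster and in the gene-poor flanks, whereas silent parts are held by Polycomb proteins. The loops of these 4 clusters were taken from an H3K27ac HiChIP of KYSE180, an established cell line of esophageal squamous cell carcinoma (ESCC), so they describe 1 line. HiChIP ligates DNA ends that lie close together in the nucleus and then enriches fragments that carry a chosen mark, here H3K27ac, the acetylated histone of active promoters and enhancers.

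A loop belonged to a cluster if at least 1 of its bins started in the window of that cluster (hg19), which was chr7:27100001-27300000 for HOXA, chr17:46600001-46820000 for HOXB, chr12:54320001-54460000 for HOXC and chr2:176930001-177070000 for HOXD. This rule uses position only. It found 63 of the 31950 loops of the list, 31 at HOXA, 15 at HOXB, 13 at HOXC and 4 at HOXD. The study's methods state the aim of the loop calling as active loops associated with p63, a transcription factor of squamous epithelium, without saying which peaks were given to the caller. A bin without a loop in this list may thus have H3K27ac contacts of other kinds, and all counts, shares and empty stretches are those of the list. Each loop joined 2 bins of 2 kb, called anchors, and carried 2 whole numbers, read as the contacts (read pairs) of the loop and the coverage of its first bin. The cells had received a non-targeting siRNA and were grown in RPMI-1640 with serum and antibiotics, and the 2 libraries, labelled 1 and 2, share this condition. The authors deposited 1 list for both libraries, so that there is no control group, no spread between replicates and no test between samples. Intervals are 95% intervals for counting error only (exact Poisson for counts, Wilson for shares), and loops that share an anchor are not independent of each other. The identity of the cell line was not checked against marker genes, since the list holds no expression values.

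The reference tables place 39 protein-coding HOX genes in the clusters, 11 in HOXA, 10 in HOXB, 9 in HOXC and 9 in HOXD. From lower to higher positions the genes run from HOXB1 to HOXB13, from HOXC13 to HOXC4 and from HOXD13 to HOXD1. The next protein-coding gene below HOXA is SKAP2, an adaptor protein, and the next above it are EVX1, another homeobox gene, and HIBADH, an enzyme of valine breakdown. HOXB lies between SKAP1, an adaptor of T cell signalling, and TTLL6, which adds glutamate chains to tubulin, and it encloses PRAC1 and PRAC2. HOXC lies between CALCOCO1, a transcriptional coactivator, and SMUG1, a DNA glycosylase. HOXD lies between EVX2, the homeobox gene at its HOXD13 end, and MTX2, which takes part in protein import into mitochondria. The tables are on GRCh38, so only this order was used, and no bin is assigned to a single gene.

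The chromatin was digested with MboI and DpnII, which both recognise GATC, and with HinfI, which recognises GANTC, so a contact is read only where such a site is near. The RefSeq table (GRCh38.p14) held promoters, from 250 bases before to 50 after a gene's start, for 20 of the 39 HOX genes. This share is too small to describe the clusters, so 1 promoter per cluster is shown as an example, with the recognition sites in capitals. They lie at chr7:27130708-27131007 on the minus strand (HOXA4), chr17:48530962-48531261 on the minus strand (HOXB1), chr12:54016638-54016937 on the plus strand (HOXC4, listed with the same sequence for HOXC5) and chr2:176151300-176151599 on the plus strand (HOXD4), all on GRCh38.p14 and thus not on the positions of the loops.
HOXA4: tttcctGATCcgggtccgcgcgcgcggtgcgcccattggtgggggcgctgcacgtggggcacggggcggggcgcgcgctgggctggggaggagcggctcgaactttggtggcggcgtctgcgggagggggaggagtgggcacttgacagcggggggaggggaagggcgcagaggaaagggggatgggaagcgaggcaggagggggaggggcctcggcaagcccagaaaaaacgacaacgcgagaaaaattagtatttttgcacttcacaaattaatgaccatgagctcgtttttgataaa
HOXB1: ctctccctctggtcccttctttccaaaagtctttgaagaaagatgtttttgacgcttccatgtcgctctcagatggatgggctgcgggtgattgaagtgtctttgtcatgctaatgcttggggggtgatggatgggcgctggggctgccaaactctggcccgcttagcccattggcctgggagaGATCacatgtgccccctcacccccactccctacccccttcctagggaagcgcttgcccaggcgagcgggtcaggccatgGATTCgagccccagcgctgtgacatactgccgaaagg
HOXC4: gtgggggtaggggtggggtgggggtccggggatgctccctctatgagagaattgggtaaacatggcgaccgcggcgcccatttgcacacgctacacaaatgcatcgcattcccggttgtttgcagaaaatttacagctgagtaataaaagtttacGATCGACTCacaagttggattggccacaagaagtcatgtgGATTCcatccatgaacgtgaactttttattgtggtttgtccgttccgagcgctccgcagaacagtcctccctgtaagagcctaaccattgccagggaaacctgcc
HOXD4: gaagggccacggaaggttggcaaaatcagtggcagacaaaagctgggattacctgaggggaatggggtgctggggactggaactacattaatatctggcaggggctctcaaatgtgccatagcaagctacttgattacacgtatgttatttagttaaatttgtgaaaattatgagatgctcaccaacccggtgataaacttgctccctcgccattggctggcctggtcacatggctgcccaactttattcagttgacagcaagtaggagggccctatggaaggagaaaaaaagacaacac
HOXA4 had 1 GATC and 0 GANTC, HOXB1 had 1 of each, HOXC4 had 1 GATC and 2 GANTC, and HOXD4 had 0 of either. Over all 34796 promoters of the table, 41.8% held GATC, 58.9% held GANTC and 75.7% held at least 1 of these sites. Both motifs read the same on either strand, and a promoter without them says nothing of the bin of 2 kb around it.

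The clusters also carry microRNAs, of which the miR-196 family lies in 3 of the 4 and is known to act on HOX transcripts. Its sequences (RefSeq, GRCh38.p14) are shown because the clusters share them, with the seed, bases 2 to 8, in capitals. The HOXA copy, MIR196B, differs from the product that MIR196A1 in HOXB and MIR196A2 in HOXC share, while the seed is the same.
miR-196b-5p: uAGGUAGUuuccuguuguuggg
miR-196a-5p: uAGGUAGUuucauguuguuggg

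HOXA had the most loops of the clusters, also per length. There were 15.5 loops per 100 kb of window at HOXA (interval 10.5 to 22.0), 9.29 at HOXC (4.94 to 15.9), 6.82 at HOXB (3.82 to 11.2) and 2.86 at HOXD (0.778 to 7.32). The ratio of HOXA to HOXB was 2.27 (exact interval 1.19 to 4.53) and that of HOXA to HOXD 5.43 (1.92 to 21.2), so both intervals lay above 1. HOXC exceeded HOXD by a ratio of 3.25 (1.00 to 13.7), an interval that begins at 1. The other 3 of the 6 pairs could not be told apart at this depth, with a ratio of 1.67 (0.849 to 3.48) for HOXA to HOXC, 0.734 (0.326 to 1.68) for HOXB to HOXC and 2.39 (0.760 to 9.88) for HOXB to HOXD. These intervals are for each pair alone and are not adjusted for the number of pairs.

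**Figure D1:**
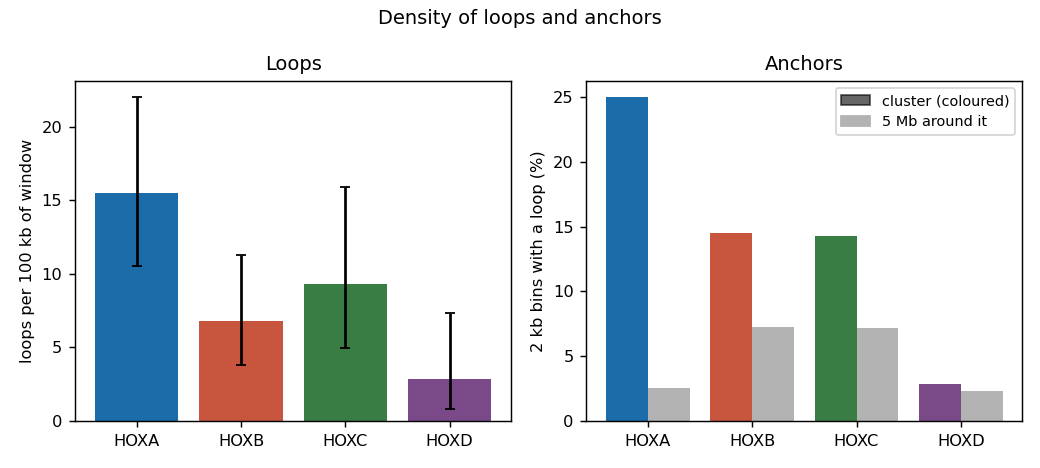
The left bars show loops per 100 kb of window with exact Poisson intervals (95%), and the right bars show the percentage of 2 kb bins with a loop in each cluster (coloured) and in the 5 Mb around it (grey). HOXA had 15.5 loops per 100 kb and loops at 25.0% of its bins, against 2.56% around it, while HOXD with 2.86% was close to the 2.28% around it.

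Set beside the rest of the list, HOXA was a dense region and HOXD an ordinary one. Of the 6159 windows of 200 kb with at least 1 anchor, tiled along all chromosomes, 4.79% had as many loops as HOXA or more, and the median was 4. As many loops as HOXB were found in 16.1% of the 5811 windows of 220 kb (median 4), and as many as HOXC in 14.4% of the 7711 windows of 140 kb (median 3). For HOXD, with 4 loops, the share was 46.8%. Counted by distinct anchors in place of loops, the shares were 2.11% for HOXA, 8.93% for HOXB, 12.1% for HOXC and 71.2% for HOXD, and among windows of chromosome 17 alone 34.4% had as many loops as HOXB. The compared windows lay on a fixed grid that can cut through a dense region, while the cluster windows were set at the clusters. These shares describe the list and are not tests.

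**Figure D2:**
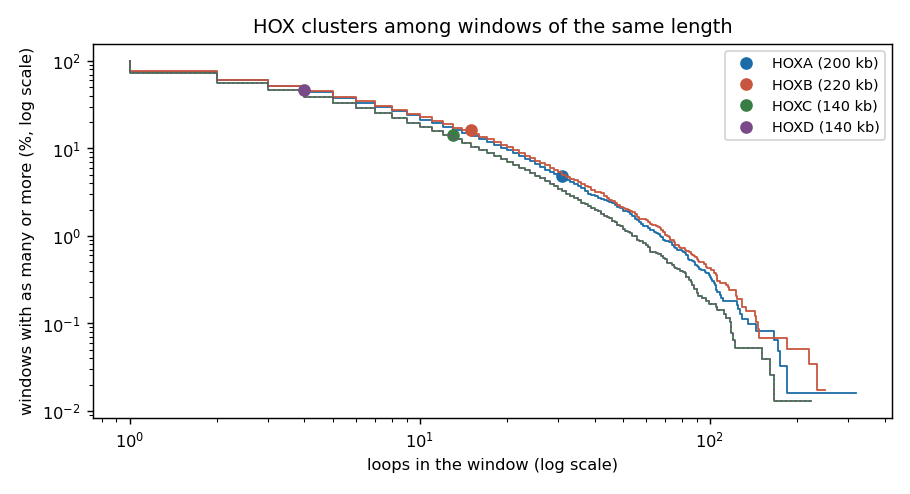
Lines give the percentage of windows (y axis, log scale) that hold at least the number of loops on the x axis (log scale), for windows of the length of each cluster, and points mark the clusters. HOXC and HOXD have the same length and share 1 line. HOXA sits at 4.79%, HOXC at 14.4%, HOXB at 16.1% and HOXD at 46.8%.

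The clusters stood out from their own surroundings to unequal degrees. At HOXA 25 of the 100 bins (25.0%) were anchors, against 2.56% of the bins in the 5 Mb around the window, and loop ends per 100 kb numbered 23.0 against 1.70. At HOXB 16 of 110 bins (14.5%) were anchors against 7.24%, and at HOXC 10 of 70 (14.3%) against 7.16%. At HOXD 2 of 70 bins (2.86%) were anchors against 2.28%. Loop ends per 100 kb numbered 9.55 against 6.24 at HOXB and 12.1 against 6.80 at HOXC. At HOXD they numbered 3.57 against 1.38, with 4 of its 5 loop ends at 1 bin. Beyond the outermost anchors of each cluster lay empty stretches on both sides. At HOXA the nearest anchor beyond them lay 68 kb away on the SKAP2 side, a bin that itself joined HOXA, and 270 kb away on the EVX1 side. The corresponding distances were 402 and 102 kb at HOXB, 242 and 184 kb at HOXC, and 100 and 330 kb at HOXD. Loops can also pass over a cluster without an anchor in it, which 1 loop did at HOXA (interval 0.0253 to 5.57) and 9 did at HOXB (4.12 to 17.1). HOXC was passed over by 8 loops (3.45 to 15.8) and HOXD by 1 (0.0253 to 5.57). Over all windows of these lengths the median was 3 or 4 loops, with quartiles of 1 and 7 to 9.

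Loops within a cluster can join its genes and their regulatory elements to each other. Of the 63 loops, 26 stayed inside a cluster and 37 left it. The share inside was 48.4% at HOXA (15 of 31, interval 32.0 to 65.2%), 40.0% at HOXB (6 of 15, 19.8 to 64.3%), 30.8% at HOXC (4 of 13, 12.7 to 57.6%) and 25.0% at HOXD (1 of 4, 4.56 to 69.9%). All 4 intervals overlapped, and the differences between the clusters were not tested. Among windows of the same length with 10 loops or more, the share inside was as high in 11.8% of 1489 windows for HOXA, 23.1% of 1453 for HOXB and 26.5% of 1525 for HOXC. These windows lay on the same fixed grid, which can split loops that a window set at a cluster would hold. HOXD has too few loops for this comparison. With windows narrowed by 20 kb at each edge, which leaves out the 2 lowest anchors of HOXB and the highest, its share inside was 21.4%. The loops inside were short, from 12 to 50 kb at HOXA (median 24 kb), 14 to 50 kb at HOXB (35 kb) and 14 to 46 kb at HOXC (35 kb), and 26 kb for the only loop of HOXD. None of the 26 exceeded 50 kb, although the HOXB window allows 220 kb.

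**Figure D3:**
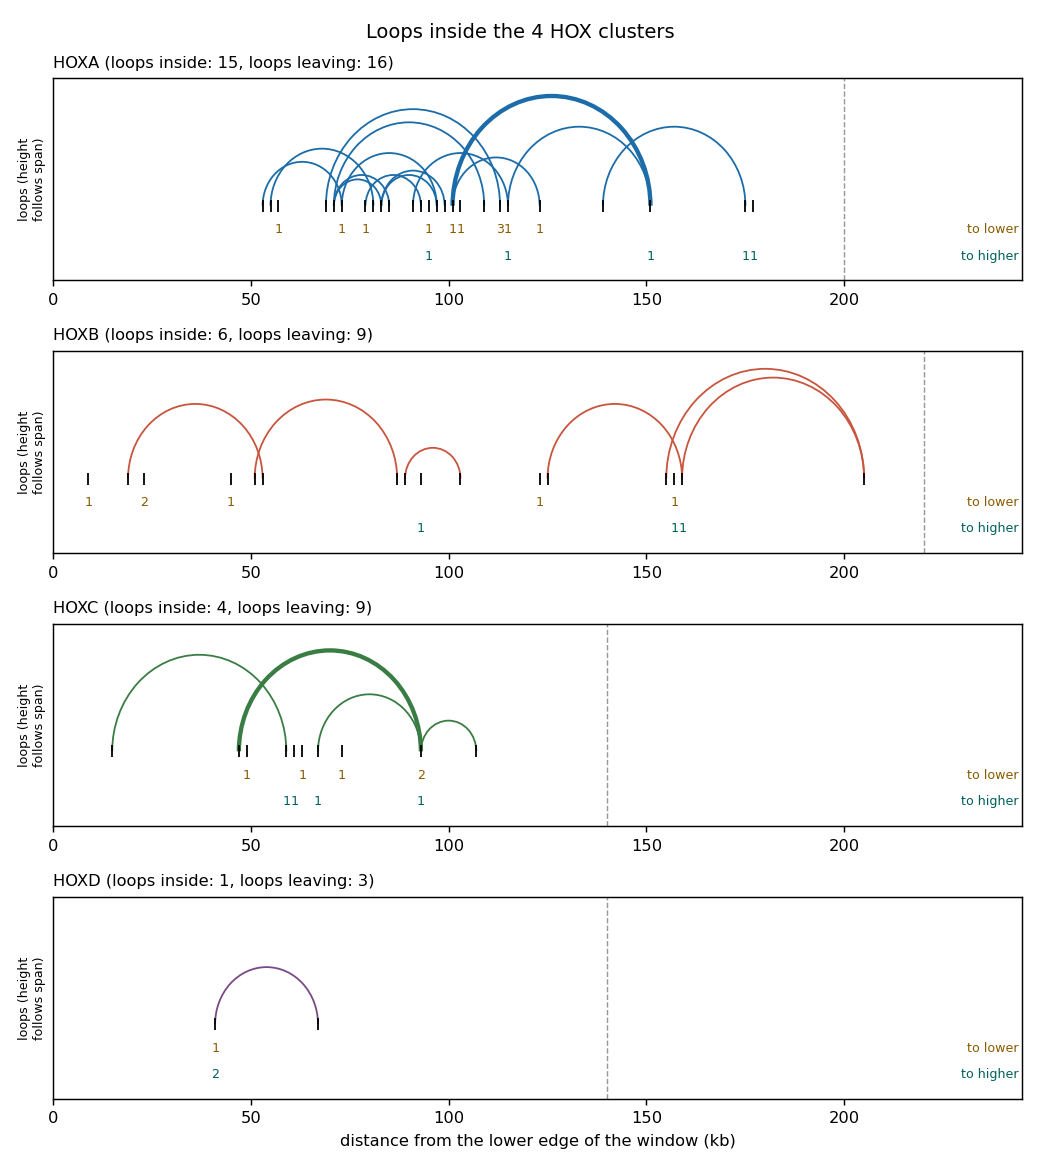
Each panel is 1 cluster, the x axis gives the distance from the lower edge of the window in kb, black ticks are anchors, arcs are loops inside (thick where a loop had 2 contacts), and dashed lines mark the upper edge. Numbers under the ticks count loops to partners at lower (upper row) and higher positions (lower row). Each digit belongs to 1 bin, also where digits of neighbouring bins touch. HOXA shows overlapping arcs from 52 to 174 kb, and HOXB separate groups of arcs with an empty stretch of 44 kb before its last anchor. HOXC shows 3 arcs that meet at 92 kb and 1 arc from 14 to 58 kb, and HOXD 1 arc.

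At HOXA the anchors filled 126 kb, from 27152001 to 27278000. Its 25 anchors formed 10 runs of touching bins, the longest of 14 kb. The bins at chr7:27212001-27214000 and chr7:27214001-27216000 touch and had 4 loops each. The former had 3 loops to lower positions and 1 inside, and the latter had 2 inside, 1 to lower and 1 to higher positions. The bin at chr7:27170001-27172000 had 3 loops, all inside, with spans of 12, 14 and 38 kb. A further 4 bins, starting at 27172001, 27182001, 27200001 and 27250001, also had 3 loops. The only HOXA loop with 2 contacts joined chr7:27200001-27202000 to chr7:27250001-27252000, 50 kb apart, which was also the longest loop inside. Of 257 pairs of HOXA anchors at least 10 kb apart, 5.84% were joined.

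At HOXB the 16 anchors were spread over 198 kb, from 46608001 to 46806000, in 11 runs, and 12 of them had 1 loop. Over the 4 clusters 62.3% of the anchors had 1 loop, next to 59.2% of the other anchors of the list. The loops inside followed each other along the cluster. The bin at 46618001 was joined to 46652001, 46650001 to 46686001, 46688001 to 46702001, and 46724001 to 46758001. A stretch of 44 kb without an anchor (46760001 to 46804000) then separated the last anchor, chr17:46804001-46806000, at the HOXB13 end. This bin had 2 loops, to bins starting at 46754001 and 46758001, 50 and 46 kb away. The most connected anchor of HOXB, chr17:46758001-46760000, had 3 loops, of which 2 stayed inside and 1 went to higher positions. Each of the 15 HOXB loops had 1 contact. Of 109 pairs of anchors, 5.50% were joined.

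HOXC was gathered around 1 bin. The bin at chr12:54412001-54414000 had 6 of the 13 loops, 3 inside, 2 to lower and 1 to higher positions, and without it HOXC had 7 loops. Among all 34902 anchors of the list, 3.05% had 6 loops or more. Its loops inside ran to the bins at 54366001, 54386001 and 54426001. The former of these had 2 contacts over 46 kb, the only such loop of the cluster. The fourth loop inside joined 54334001, at the HOXC13 end, to 54378001 over 44 kb. The anchors covered 94 kb, from 54334001 to 54428000, and 7 of the 10 had 1 loop. Of 37 pairs of HOXC anchors at least 10 kb apart, 10.8% were joined.

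HOXD rested on 1 bin. All 4 loops had an end at chr2:176970001-176972000, which lies 40 kb above the lower edge of the window, on the side of HOXD13. The loop inside joined it to chr2:176996001-176998000, the only other anchor, 26 kb away, and without this bin HOXD had 0 loops. Each loop had 1 contact. Anchors with 4 loops or more made up 9.33% of the list. In the 4 clusters together, 10 of 53 anchors had 3 loops or more, next to 18.3% of all anchors, and 4 of 53 had 4 or more, so highly connected anchors were about as frequent as elsewhere.

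The coverage of a bin was read as the reads that fall on it in any pair, and is known only for bins listed first in a loop. At HOXA it ran from 5 to 30 over 15 bins with a median of 18 (quartiles 12.5 and 24.0), against 12 (8.0 and 18.2) over the 32 first bins of the 5 Mb around it. At HOXB it ran from 5 to 16 over 8 bins, with a median of 9 both in the cluster and in the 116 first bins around it. At HOXC it ran from 5 to 45 over 6 bins, and the median was 12.5 against 11.5 over 120 bins. HOXD had 1 such bin, with a coverage of 63. Only 2.02% of all first bins were covered as highly, and the median of the 27 first bins around it was 12. The HOXC bin at 54412001, with a coverage of 45, was among the top 4.94%. Bins with equal numbers of loops differed in coverage. The HOXA bin at 27214001 had 4 loops with a coverage of 12, like the HOXD bin with 63, and the HOXA bin at 27172001 had 3 loops with a coverage of 5, which 91.6% of first bins reach. Copies of a region and its acetylation cannot be told apart in this coverage.

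**Figure D4:**
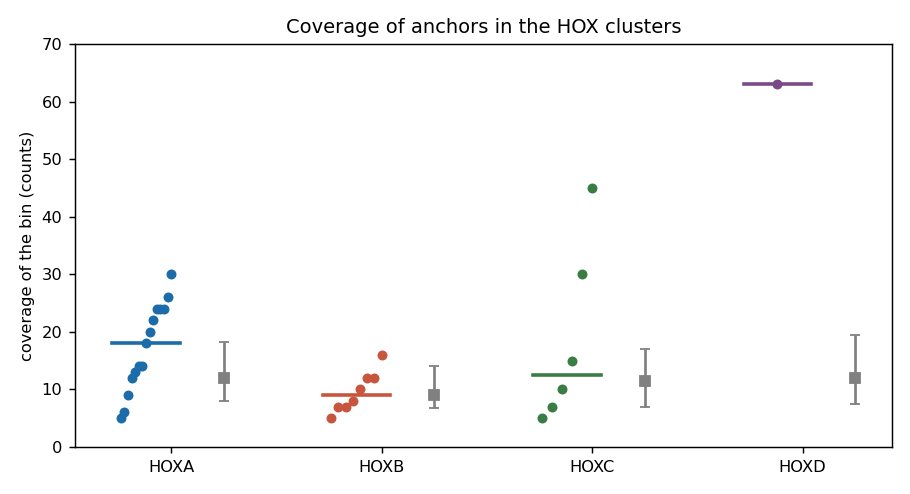
Points are the coverage (counts) of each first bin in a cluster, in order of coverage, coloured lines their medians, and grey squares with bars the median and quartiles of the first bins in the 5 Mb around it. HOXA has a median of 18 against 12 around it, HOXB 9 against 9, HOXC 12.5 against 11.5, and the single HOXD bin lies at 63.

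Most partners outside the clusters were joined to their cluster by 1 loop. The 37 loops that left the clusters reached 34 partner bins, none of which touched another. At HOXA, 16 loops reached 14 partner bins. The partner at chr7:26904001-26906000, on the SKAP2 side, was joined to 3 HOXA bins, starting at 27156001, 27202001 and 27212001, with spans of 252, 298 and 308 kb. It had a coverage of 35 and 1 further loop in the list. At HOXB, 9 loops reached 8 partners, and chr17:46170001-46172000, on the SKAP1 side, was joined to the bins at 46622001 and 46722001 (452 and 552 kb). It had a coverage of 21 and 2 further loops. A loop of the nearby bin at 46204001 also ended at 46622001. The 9 partners of HOXC and the 3 of HOXD were each joined once. In the list as a whole, 6 of the 14 partners of HOXA, 5 of 8 of HOXB, 5 of 9 of HOXC and 2 of 3 of HOXD had no loop other than the one to the cluster, while 59.2% of all anchors outside the clusters had 1 loop. These shares are not like for like. Partners were found through their loops, which favours bins with many loops, whereas the 59.2% counts each anchor once. The most connected partner, chr12:53620001-53622000 at HOXC, had 5 loops, of which 4 went elsewhere.

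**Figure D5:**
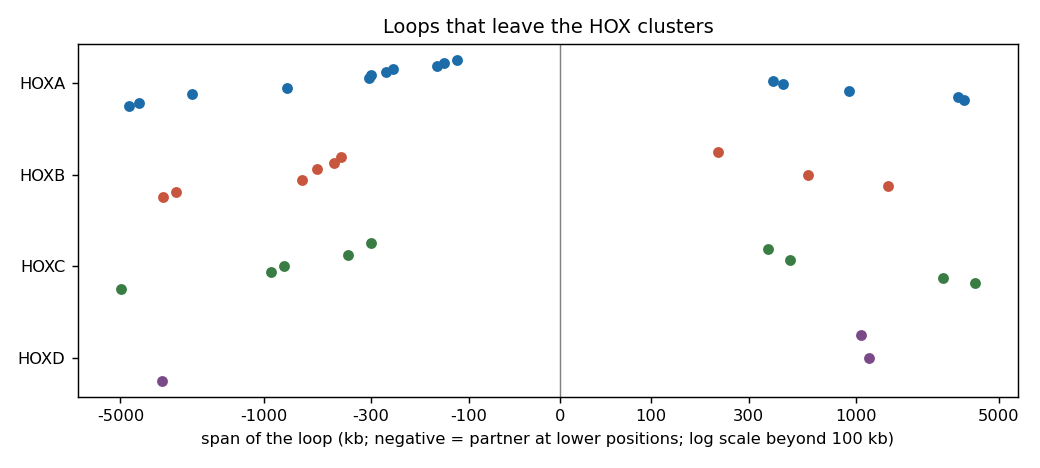
Each point is 1 loop that leaves a cluster, placed by its span in kb, with partners at lower positions to the left and at higher positions to the right (linear within 100 kb, log scale beyond), and the small vertical steps only separate the points. HOXA has a group of partners 114 to 308 kb below it, while the nearest partner lay 212 kb away at HOXB, 298 kb at HOXC and 1058 kb at HOXD.

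Of the 16 loops that left HOXA, 11 went to lower positions, towards SKAP2 (68.8%), and 5 to higher, and the interval of this share (44.4 to 85.8%) includes an equal split. The former spanned 114 to 4550 kb with a median of 298 kb, and the latter 396 to 3358 kb with a median of 928 kb. The bins with loops to lower positions lay between 27156001 and 27222001 (median 27202001), and those with loops to higher positions between 27194001 and 27276001 (median 27250001). The ranges overlapped, while the 3 highest anchors with such loops, from 27250001 on, had none to lower positions and the lowest, below 27194001, had none to higher ones.

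At HOXB 6 of 9 loops went to lower positions (66.7%, 35.4 to 87.9%), over 418 to 3090 kb, and the others over 212, 582 and 1444 kb. Of the 6, 4 came from the bins at 46608001, 46622001 and 46644001, at the HOXB1 end, which faces SKAP1. The loops to higher positions came from 46692001, 46756001 and 46758001. HOXC split nearly evenly, with 5 of 9 to lower positions (55.6%, 26.7 to 81.1%) over 298 to 4988 kb and 4 to higher positions over 374, 480, 2660 and 3828 kb, and the bins of both kinds were intermingled. HOXD had 1 loop to lower positions, over 3136 kb to chr2:173834001-173836000, and 2 to higher positions, over 1058 and 1160 kb to bins at 178028001 and 178130001. No loop of HOXD that left the cluster was shorter than 1 Mb, whereas the median of such loops was 419 kb at HOXA, 582 kb at HOXB and 792 kb at HOXC.

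Loops of the HOX clusters spanned 1 Mb or more in 22.2% of cases (14 of 63, interval 13.7 to 33.9%), against 11.6% (3713 of 31887, 11.3 to 12.0%) of all other loops. The 2 shares are not like for like, since a loop entered a cluster by either of its ends and each other loop was counted once. This rule favours loops longer than a window over loops that stay inside it. Counted by this rule over all windows of 200 kb, the 31950 loops of the list made 50787 entries. Each of the 3727 loops of 1 Mb or more made 2 of them. The share of long loops among these entries was thus above 11.6%, and its difference from 22.2% was not tested. By cluster, loops of 1 Mb or more were 5 of 31 loops at HOXA, 3 of 15 at HOXB, 3 of 13 at HOXC and 3 of 4 at HOXD. Without HOXD, whose loops share 1 anchor, the share was 18.6% (10.7 to 30.4%) and its interval included that of the other loops. Over all 63 loops the median span was 252 kb, against 120 kb for the other loops, and the lower quartiles were 35 and 36 kb. Entry by either end limits this comparison of spans in the same way. Loops with 2 contacts were 2 of 63 (3.17%, 0.875 to 10.9%), next to 3.36% (3.16 to 3.56%) of the other loops, so 61 of the 63 loops rest on 1 read pair each. The list holds 0 loops between chromosomes, so contacts of the 4 clusters with each other are not covered by it.

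Some bins had contacts both inside and outside their cluster, which takes at least 2 loops, a number that 12 anchors of HOXA, 4 of HOXB, 3 of HOXC and 1 of HOXD had. At HOXA 8 of 25 anchors had loops of both kinds, 13 only inside and 4 only outside. At HOXB the bin at 46758001 had both, beside 9 anchors with loops inside alone and 6 with loops outside alone. At HOXC 3 of 10 anchors had both, namely 54378001, 54386001 and 54412001, and at HOXD the bin at 176970001. With mostly 1 loop per anchor, an anchor without loops of 1 kind may have them below the depth of the list, and the differences between the clusters in this respect were not tested.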

How the data were processed

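H3K27ac HiChIP libraries of KYSE180 (2 libraries of 1 condition) were processed by the authors with HiC-Pro, FitHiChIP called loops that the methods describe as active and tied to p63 (Peak-To-All, which asks for a peak at 1 end or both; the peaks used are not given in the sources used here), and loops without H3K27ac at both ends were removed. The submitters' processing notes name hg19, and versions and thresholds are not given in the sources used here. The authors deposited 1 list for both libraries with a column of counts and a column of coverage, neither normalized. The list names no columns, so the former was taken for contacts and the latter for first-bin coverage, given their values and where FitHiChIP puts such columns. The depth of the libraries is unknown.

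The windows of the clusters, the lists and the rule for named bins (per cluster the 3 anchors with the most loops, partners with 2 loops or more, loops with 2 contacts, and the shortest and longest leaving loops) were set with earlier results of these data known. Other bins are named where they complete a cluster. A bin belonged to a window by its start, and positions are printed 1-based. Surroundings were 2.5 Mb on each side. Gene promoters on hg19 were not used here, so single genes were not placed. Counting was tested on simulated loops. Intervals came from scipy 1.17.1, tables from pandas 2.3.3 and numpy 2.4.6, and plots from matplotlib 3.10.9, under Python 3.11.15. Alternatives were wider and narrower windows, a minimum span or contact number, merged partners, and other backgrounds.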

Additional observations from a re-analysis of the deposited data

How the results depend on the processing

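Each alternative changed 1 choice, and 68 of 90 recomputed values of 33 results stayed near the main value (counts and medians within 1.5 times, shares within its counting interval), while 22 moved. The anchor left out and the clusters or spans left out for long loops were chosen after seeing the data. Causes were not tested, apart from those that follow from an alternative by construction. With at least 2 contacts, HOXA and HOXC had 1 loop each and HOXB and HOXD 0, because 61 of 63 loops had 1 contact. The share inside was then 100% at both HOXA and HOXC, with median spans of 50 and 46 kb, and 4 values for HOXB and HOXD could not be given. With loops spanning at least 20 kb, the median span at HOXA was 188 kb, by construction. Without the most connected anchor, HOXC had 7 loops and HOXD 0. In 1 Mb in place of 5 Mb, the median coverage around HOXD was 2.5, from 2 bins. With anchors in place of loops, 2.11, 8.93, 12.1 and 71.2% of windows had as many as HOXA, HOXB, HOXC and HOXD, and on their own chromosomes 3.99, 34.4, 11.2 and 33.0% had as many loops. With loops spanning at least 20 kb the share was 5.59% for HOXA and 45.2% for HOXD. Widening the windows by 20 kb added 0 loops to every cluster. Narrowing them removed 1 loop of HOXB and lowered its share inside to 21.4%, within its counting interval. No paired analysis was possible because a single pooled list holds the 2 libraries, and no library could be left out. The number of contacts limits every comparison between the clusters.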
